A study of Homo sapiens with 6 samples.

Results

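Plasminogen activators and serpins were examined as 9 genes, namely the activators PLAU and PLAT, the receptor PLAUR, and the inhibitor-family genes SERPINE2, SERPINB1, SERPINB2, SERPINB5, SERPINB6 and SERPINB8. The members were chosen by gene symbol, and 9 of the 60546 gene identifiers in the table carried one of these symbols. The libraries came from HCT-116, an established human colon carcinoma line, infected with the viral vector PMSCV carrying GOLPH3 cDNA (3 libraries, labelled GOLPH3) or empty (3 libraries, labelled Vector). GOLPH3 encodes a Golgi membrane protein, and the comparison asked how its overexpression altered the transcriptome. All 6 samples carried the genotype label wild type, were grown in DMEM with fetal bovine serum and were lysed in Trizol. The methods describe puromycin-selected stable lines sampled at different generations, so each group is 1 line and p-values measure only the spread between samples of that line. The titles carry a P number that they do not explain: P8, P12 and P13 for GOLPH3 replicates 1, 2 and 3, and P12, P11 and P13 for Vector replicates 1, 2 and 3.

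Urokinase, encoded by PLAU, and tissue plasminogen activator, encoded by PLAT, are serine proteases that cut plasminogen to plasmin, a broad protease that dissolves fibrin and degrades matrix. Urokinase is held at the cell surface by its receptor uPAR, encoded by PLAUR, and both activators are inactivated by serpins, which trap a protease by offering a loop that is cut and locks the enzyme. Clade B serpins mostly stay inside the cell and inhibit intracellular proteases. In colorectal tumors the urokinase system has long been studied for its part in invasion.

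The table gives normalized reads, that is, reads divided by a size factor per library with no correction for gene length. The reads behind it numbered 15708846 to 21900764 per library, and 3 reads correspond to 2.47 to 3.29 normalized reads, the limit that a count of 0 allows. Such limits cover counting error only. GOLPH3 itself was at 1630, 1272 and 1383 normalized reads in GOLPH3 replicates 1 to 3, and Vector replicates 1 to 3 had 1968, 1892 and 1472 (log2 difference -0.31, limma adjusted p = 0.609). The transcript therefore did not separate the groups as labelled, and groups are called by their labels throughout. Of 12 colon epithelial markers, 10 were tested and 2 (KRT18 and KRT19) were called higher in GOLPH3 libraries, where 0.953% of all genes tested were. By non-overlapping groups 6 of the 10 tested were higher, including the abundant EPCAM, CDH1 and KRT8, beside 9.2% of all genes tested. CDX2 had a log2 difference of -0.52 (limma adjusted p = 0.636). CDH17, VIL1, CDX1, LGALS4 and GPA33 had at most 9.66 normalized reads in any library, and KRT20 was listed at 0 in every library. A list of 10 embryonic kidney markers (HEK293-like) summed to 1075, 2084 and 2121 normalized reads in the GOLPH3 libraries and 7551, 4832 and 13371.5 in the Vector libraries. Of these 10, 7 were called lower in GOLPH3 libraries, where 4.12% of all genes tested were. In every GOLPH3 library 6 were at 0, with none at 0 in any Vector library. Nearly all of the GOLPH3 sums came from GAL (938, 1969 and 1991) and PAX2 (134, 112 and 130). Their log2 differences were -0.07 and 0.17 (limma adjusted p = 0.941 and 0.853). Of 12 fibroblast and mesenchymal markers, 9 were tested and 2 (VIM and PDGFRA) were called lower in GOLPH3 libraries, beside 4.12% of all genes tested. By non-overlapping groups 4 were lower and 3 (COL1A1, COL6A3 and THY1) higher. Of all genes tested, 22% did not overlap in either direction. The fibroblast and mesenchymal list summed to 1528 to 2008 normalized reads in GOLPH3 libraries against 3162 to 5535.5, and without VIM to 1487 to 1996 against 1508.5 to 2129. The part of these markers in the results on the 9 genes was not tested.

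Promoter sequences are shown for PLAU, PLAUR and SERPINB8, whose highest values lay in the same libraries, for SERPINB2, which was almost silent, and for SERPINB5, which followed another pattern. Each is the 250 bases before a RefSeq start on GRCh38.p14, written on the gene's strand. Capitals mark, on either strand, letters searched for the AP-1 motif as TGANTCA, a loose form in which N is any base. They also mark the GC box, searched as GGGCGG, and the promoter motif TATAAA. In SERPINB8 2 matches of the last on opposite strands overlap.
PLAU, chr10:73910882-73911131, plus strand: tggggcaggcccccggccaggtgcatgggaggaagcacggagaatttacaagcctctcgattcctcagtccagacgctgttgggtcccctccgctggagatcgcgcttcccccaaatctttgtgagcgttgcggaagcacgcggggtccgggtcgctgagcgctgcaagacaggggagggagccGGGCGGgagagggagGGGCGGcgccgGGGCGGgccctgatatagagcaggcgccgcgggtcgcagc
PLAUR, chr19:43670170-43670419, minus strand: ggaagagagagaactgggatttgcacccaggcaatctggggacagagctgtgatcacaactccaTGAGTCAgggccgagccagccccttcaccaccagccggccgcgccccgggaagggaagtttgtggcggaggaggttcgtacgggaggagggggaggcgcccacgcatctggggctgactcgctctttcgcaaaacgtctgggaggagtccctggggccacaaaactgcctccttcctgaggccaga
SERPINB8, chr18:63969831-63970080, plus strand: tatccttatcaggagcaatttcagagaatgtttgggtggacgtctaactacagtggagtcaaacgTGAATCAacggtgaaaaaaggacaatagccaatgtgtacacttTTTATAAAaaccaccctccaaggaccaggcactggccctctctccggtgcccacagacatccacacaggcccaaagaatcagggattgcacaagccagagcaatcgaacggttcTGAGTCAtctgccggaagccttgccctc
SERPINB2, chr18:63887455-63887704, plus strand: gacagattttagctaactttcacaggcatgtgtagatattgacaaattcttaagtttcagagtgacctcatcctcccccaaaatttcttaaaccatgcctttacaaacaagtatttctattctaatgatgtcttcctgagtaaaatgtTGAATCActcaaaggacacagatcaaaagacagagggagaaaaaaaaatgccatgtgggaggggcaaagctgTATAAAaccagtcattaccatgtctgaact
SERPINB5, chr18:63476708-63476957, plus strand: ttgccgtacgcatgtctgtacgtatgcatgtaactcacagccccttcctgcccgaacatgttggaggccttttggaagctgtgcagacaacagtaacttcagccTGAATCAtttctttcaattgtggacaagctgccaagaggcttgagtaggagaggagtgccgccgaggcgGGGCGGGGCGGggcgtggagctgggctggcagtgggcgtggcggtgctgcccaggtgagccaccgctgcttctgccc

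RefSeq windows existed for 8 of the 9 genes, in 13 windows, and 4 genes had a match of TGANTCA, each in 1 window. PLAUR held TGAGTCA with its first base 186 bases before the start. SERPINB8 held TGAATCA at 185 and TGAGTCA at 28 bases, SERPINB5 held TGAATCA at 146, and SERPINB2 held TGAATCA at 102. SERPINB5 and SERPINB2 thus matched only through TGAATCA. Neither PLAU window held these letters, and the window shown carried 3 GC boxes at 66, 51 and 40 bases. Of all 35116 windows of this length, 6.57% held TGANTCA, 42.6% GGGCGG and 10.7% TATAAA. A match describes the letters in the window and no site of binding, and the absence of one says only that these letters are not there.

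PLAT was the only gene of the 9 with a lower mean in the GOLPH3 libraries. PLAT (ENSG00000104368, chr8:42175233-42207724, minus strand; gene coordinates are GENCODE 29 on GRCh38) had 234, 216 and 367 normalized reads in GOLPH3 replicates 1 to 3 and 1476, 290 and 1163 in Vector replicates 1 to 3. All GOLPH3 values lay low and close together, and the groups overlapped because Vector replicate 2, labelled P11, lay beside them. PLAT averaged 272 ± 82.6 (SD, n = 3) in the GOLPH3 libraries against 976 ± 614 (SD, n = 3). The log2 difference of -1.58 (standard error 0.52, 95% interval -2.72 to -0.43) did not pass the test over 26536 genes (limma, Benjamini-Hochberg adjusted p = 0.124). The difference was -2.77 between the P12 libraries and -1.66 between the P13 libraries.
The PLAT call turned on the method and on that library. DESeq2 on the reads gave -1.84 with an adjusted p of 0.00468, edgeR gave an adjusted p of 0.061, and limma without Vector replicate 2 gave -2.30 with an adjusted p of 0.00123. Vector replicate 2 also had the lowest sum of the embryonic kidney markers among the Vector libraries, although NEFL and NEFM of that list were lowest in Vector replicate 1. The highest sum was in Vector replicate 3 (13371.5 normalized reads), whereas PLAT was highest in Vector replicate 1. The part of these markers in the PLAT values was not tested. In these bulk libraries, fewer cells with a transcript and less RNA per cell cannot be told apart. The genes whose profile over the 6 libraries was most like that of PLAT, among 12654 with a mean of at least 50 normalized reads, were CPT2 (Pearson r = 0.986), AC116533.1 (0.983) and C22orf39 (0.981), as a description in which all points share libraries and depth.

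PLAU had the widest spread between libraries of the 8 genes with a mean of at least 100 normalized reads. PLAU (ENSG00000122861, chr10:73909177-73917497, plus strand) had 1062, 9414 and 2888 normalized reads in the GOLPH3 libraries and 3978, 756 and 1350 in the Vector libraries. Both libraries labelled P12 were the highest, 1 from each group, and the groups overlapped. Its highest library was 12.5 times its lowest, a wider spread than in 98.0% of the 11153 genes with a mean of at least 100 normalized reads, whose median was 2.35. PLAU averaged 4454 ± 4391 (SD, n = 3) in the GOLPH3 libraries against 2028 ± 1715 (SD, n = 3), and the log2 difference was 0.94 (standard error 0.71, 95% interval -0.61 to 2.50, limma adjusted p = 0.547). It was 1.24 within P12 and 1.10 within P13, although over all 6 libraries the difference lay within the spread of the groups. PLAU shares 916 exonic bases with C10orf55 on the opposite strand, and the strand setting of the counting is not given in the sources used here. C10orf55 had at most 33.0 normalized reads in any library.

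PLAUR had 1109, 4540 and 2770 normalized reads in the GOLPH3 libraries and 4629, 1251 and 1534 in the Vector libraries. PLAUR (ENSG00000011422) lies at chr19:43646095-43670547 on the minus strand, and its P12 libraries of both groups again stood above the other 4. The log2 difference was 0.22 (95% interval -0.98 to 1.41, limma adjusted p = 0.878), with -0.03 within P12 and 0.85 within P13. It became -0.24 without GOLPH3 replicate 2 and -0.15 without Vector replicate 2, so no direction could be given.
Both P12 libraries were the highest in 3 of the 9 genes, PLAU, PLAUR and SERPINB8, and the lowest in 0. Among all genes tested, both P12 libraries stood above the other 4 in 6.74% and below them in 6.1%.

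**Figure D1:**
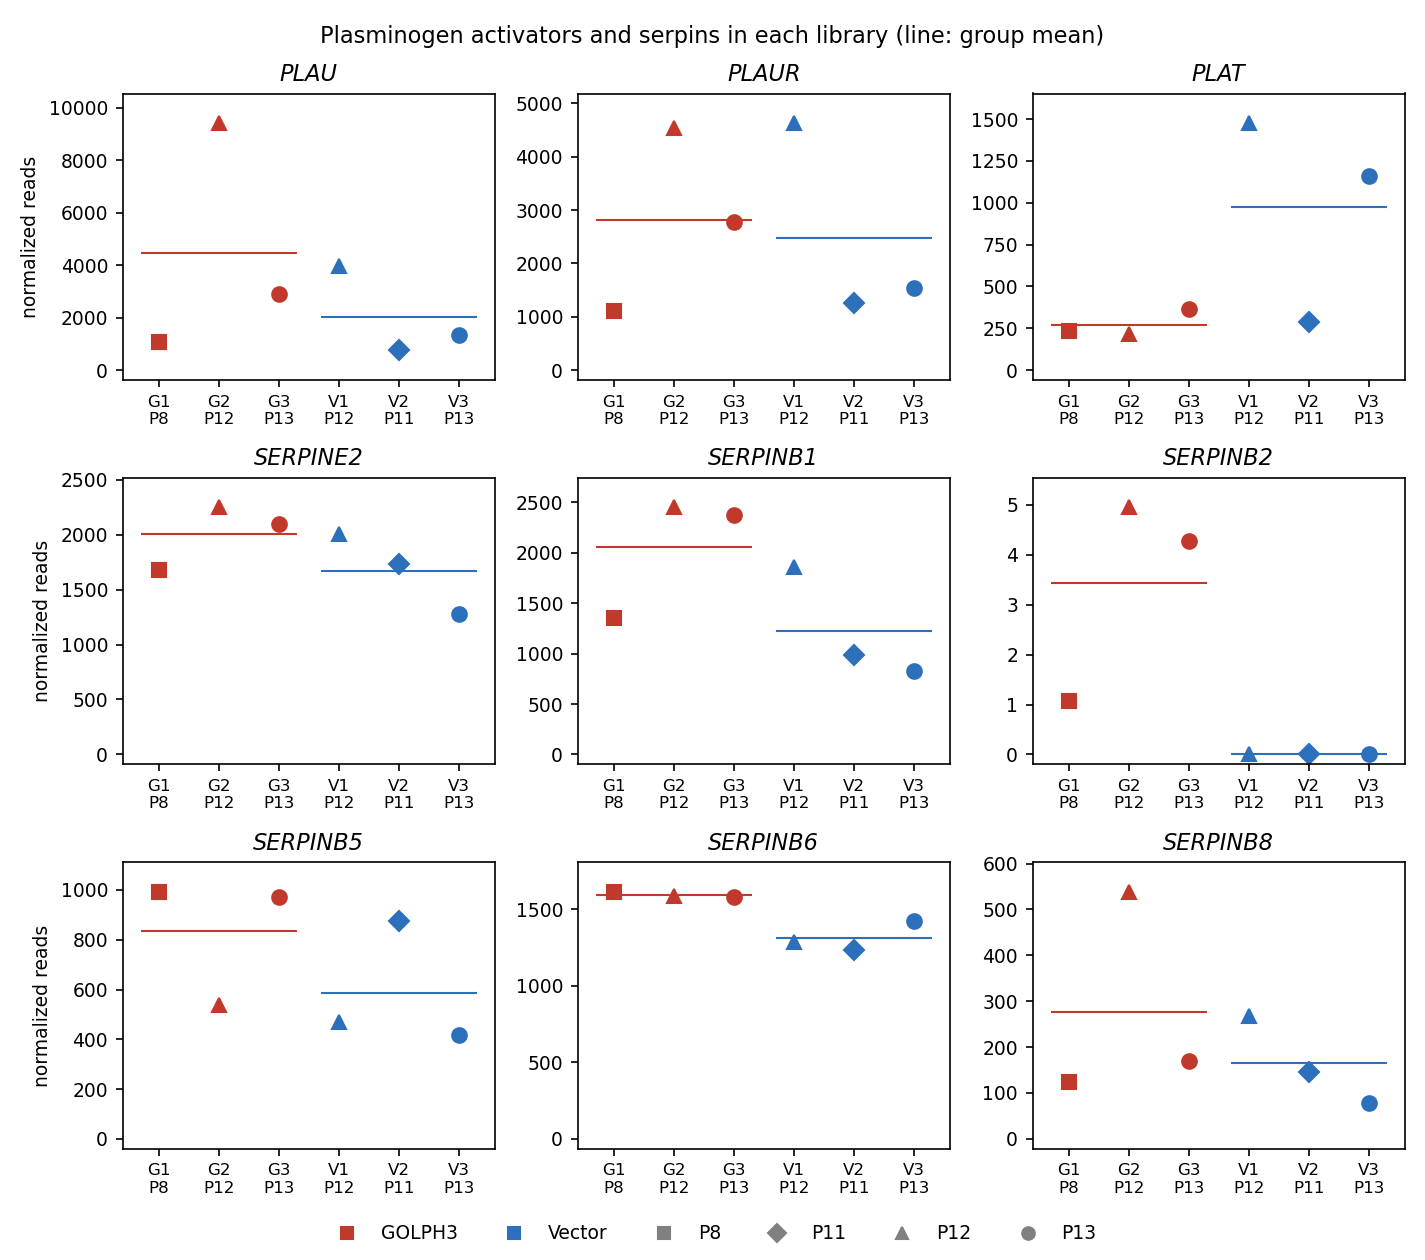
Normalized reads of the 9 genes in each of the 6 libraries, with the GOLPH3 libraries in red, the Vector libraries in blue, a marker shape for each P number and a horizontal line at each group mean of 3 libraries. Each panel has its own linear axis from 0. The P12 triangles are the highest points for PLAU, PLAUR and SERPINB8, and the SERPINB6 groups do not overlap.

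SERPINE2 encodes protease nexin-1, a secreted serpin that inhibits thrombin, trypsin and urokinase. SERPINE2 (ENSG00000135919, chr2:223975112-224039319, minus strand) had 1674, 2246 and 2099 normalized reads in the GOLPH3 libraries and 2002, 1733 and 1280 in the Vector libraries. The groups overlapped, and the highest library was 1.76 times the lowest. The log2 difference was 0.28 (95% interval -0.35 to 0.90, limma adjusted p = 0.677), a size that lay within the spread between replicates.

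SERPINB1 encodes an inhibitor of neutrophil elastase, cathepsin G and related proteases. SERPINB1 (ENSG00000021355, chr6:2832332-2842006, minus strand) had 1357, 2447 and 2368 normalized reads in the GOLPH3 libraries and 1854, 983 and 828 in the Vector libraries. The groups overlapped only by GOLPH3 replicate 1, labelled P8, which lay below Vector replicate 1. The means were 2057 ± 608 and 1222 ± 553 (SD, n = 3 each), and the log2 difference was 0.79 (standard error 0.36, limma adjusted p = 0.285). Within P12 it was 0.40 and within P13 it was 1.51.
SERPINB6 encodes an inhibitor of cathepsin G and trypsin-like proteases, and it was the steadiest of the 9 genes. SERPINB6 (ENSG00000124570, chr6:2948159-2972165, minus strand) had 1613, 1582 and 1579 normalized reads in the GOLPH3 libraries and 1287, 1236 and 1421 in the Vector libraries. The groups did not overlap, and the highest library was 1.31 times the lowest, a ratio below that of all but 2.30% of genes. The log2 difference was 0.28 (standard error 0.26, 95% interval -0.28 to 0.84, limma adjusted p = 0.633), where limma draws the spread of each gene toward that of genes of like abundance.

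SERPINB5 encodes maspin, a clade B member that does not act as a protease inhibitor. SERPINB5 (ENSG00000206075, chr18:63476761-63505085, plus strand) had 993, 537 and 972 normalized reads in the GOLPH3 libraries and 468, 876 and 419 in the Vector libraries. Unlike PLAU and PLAUR, it was not highest at P12, and GOLPH3 replicate 2 and Vector replicate 2 crossed the groups. The log2 difference was 0.53 (95% interval -0.28 to 1.34, limma adjusted p = 0.507), with 0.20 within P12 and 1.21 within P13.
SERPINB8 encodes an inhibitor of furin, the protease that matures many secreted proteins. SERPINB8 (ENSG00000166401, chr18:63969925-64019779, plus strand) had 123, 538 and 170 normalized reads in the GOLPH3 libraries and 269, 146 and 79.0 in the Vector libraries. The groups overlapped, and the log2 difference of 0.62 (95% interval -0.63 to 1.87, limma adjusted p = 0.631) became -0.01 without GOLPH3 replicate 2. Its exons share 370 bases with HMSD on the same strand, which had 10.3 to 25.6 normalized reads, and 257 bases with the antisense gene AC009802.1, which had at most 14.8.
SERPINB2 encodes PAI-2, an inhibitor of urokinase. SERPINB2 (ENSG00000197632, chr18:63871692-63903890, plus strand) had 1, 6 and 4 reads in the GOLPH3 libraries and 0 reads in every Vector library. The groups did not overlap, but the level in all 6 libraries was close to the detection limit. The GOLPH3 mean of 3.43 normalized reads lay close to a floor of 3 reads per Vector library, which averaged 2.98. GOLPH3 replicate 1, with 1 read, lay below that floor, so no fold is given. SERPINB2 passed the filter on low values only through the GOLPH3 libraries, and its limma adjusted p was 0.125. Its exons share 547 bases with SERPINB10, which was listed at 0 in every library.

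Across the 9 genes, 0 passed an adjusted p of 0.05 in limma, where 5.07% of the 26536 genes tested did, 0.953% higher and 4.12% lower in the GOLPH3 libraries. SERPINB2 passed the filter on low values only through the GOLPH3 libraries, so it is left out of the counts that follow for the other 8 genes. At an unadjusted p under 0.05 limma gave 1 of the 8 (PLAT) against 17.6% of all genes. DESeq2 called 1, PLAT, of the 8 genes with an adjusted p, against 8.68% of all genes with one, and edgeR called 0 of 8 against 6.58%. The log2 difference was positive for 7 genes and negative for PLAT, with a median of 0.40, where the median of all genes tested was 0.016 and 50.92% were positive. Groups did not overlap in 1 gene, SERPINB6, which was higher in GOLPH3 libraries, where 9.2% of all genes were separated in that direction and 22% in either direction.
With the P number as a block, 22.9% of all genes were called. Of the 8 genes, PLAU (log2 difference 1.17, limma adjusted p = 6.31e-07), SERPINB1 (0.96, 0.000101), SERPINB5 and SERPINB8 were called higher and PLAT (-2.21, 1.29e-13) lower. SERPINB2, left out of the counts, was called higher as well, which made 6 of the 9. That fit rests on the 4 libraries at P12 and P13 and leaves 1 residual degree of freedom, and nothing in the labels says that an equal P number marks a shared culture. In the values, deviations from the group means correlated at 0.62 in the P12 pair and 0.60 in the P13 pair. They also correlated at 0.65 between P8 and P11, which share no P number.

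**Figure D2:**
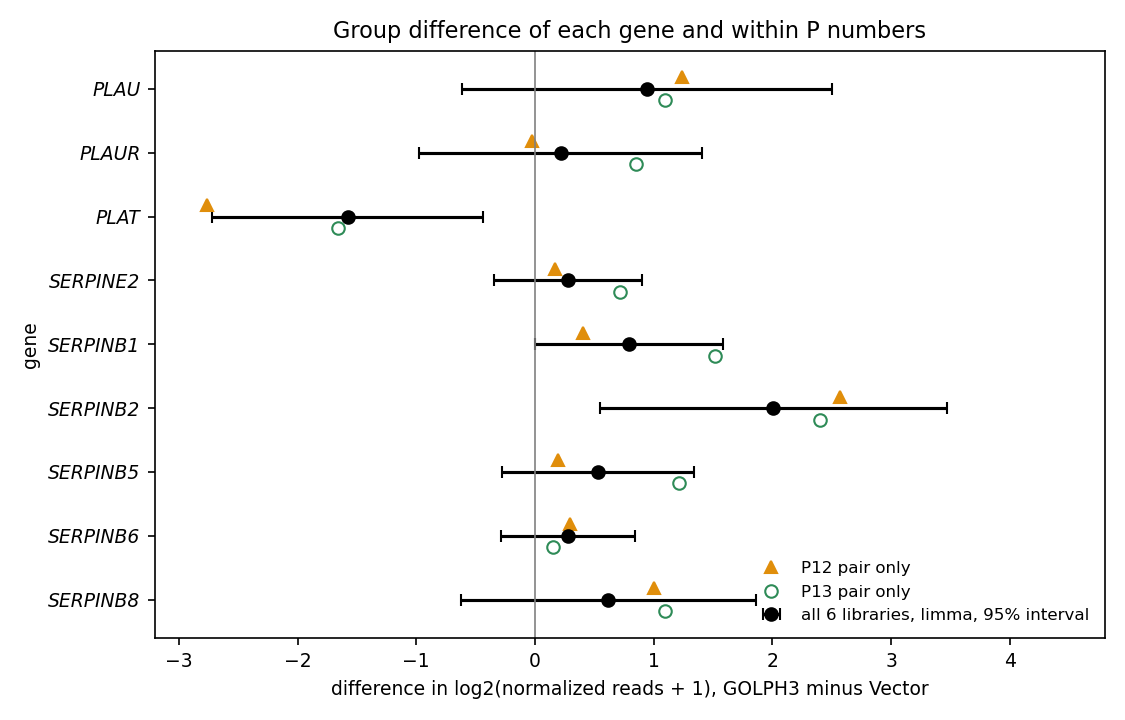
Log2 difference between GOLPH3 and Vector libraries for each of the 9 genes on the x axis, with bars for the 95% interval from limma (3 libraries per group) and separate markers for the difference within the P12 pair and within the P13 pair. PLAT alone lies below 0 at -1.58, and its P12 and P13 values of -2.77 and -1.66 are below 0 as well.

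Levels can be compared between genes only per length of exon. On the scale of normalized reads per kb of annotated exon, averaged over the 6 libraries, the order was PLAU (1099), PLAUR (592), SERPINB1 (530), SERPINE2 (207), SERPINB5 (180), SERPINB6 (110), PLAT (94.3), SERPINB8 (37.6) and SERPINB2 (0.62). Neighbours in that order overlapped in their ranges over the libraries except SERPINB1 and SERPINE2 (268 to 791 against 144 to 253) and SERPINB8 and SERPINB2. Every length adds up the annotated exons of all isoforms. Genes with long sums, such as SERPINB6 (13.201 kb), SERPINE2 (8.891 kb) and PLAT (6.618 kb), can therefore be understated against PLAU (2.95 kb).

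The clade B genes lie in 2 clusters. On chromosome 6, SERPINB1, SERPINB9 and SERPINB6 lie in that order within 139.834 kb, and 3 of 3 had a mean of at least 50 normalized reads. On chromosome 18, 10 genes span 543.019 kb, and 2 had such a mean, SERPINB5 and SERPINB8, which are the genes at the ends of the cluster. Between them, 4 genes never exceeded 3 reads in a library, and SERPINB12 and SERPINB10 of these were at 0 throughout. Of 8 other clade B genes, 2 were tested and 0 passed, SERPINB9 (log2 difference 0.44, limma adjusted p = 0.595), the granzyme B inhibitor, and SERPINB7 (0.63, 0.802), and 0 had an unadjusted p under 0.05 or a call by DESeq2 or edgeR.

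**Figure D3:**
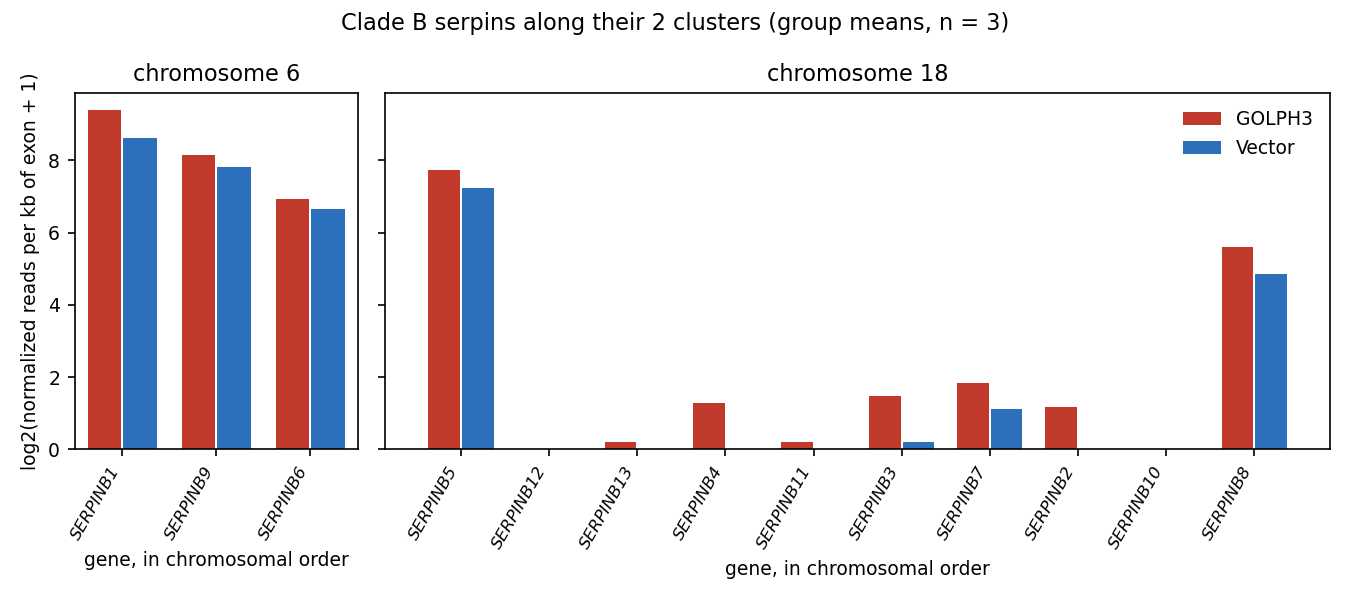
Mean level of each clade B gene as log2(normalized reads per kb of exon + 1) in GOLPH3 and Vector libraries (3 each), in the order of the genes along chromosome 6 and chromosome 18. The 3 genes on chromosome 6 are expressed, and on chromosome 18 the end genes SERPINB5 and SERPINB8 stand above the other 8.

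Within each library, PLAU per PLAT on the per-kb scale was 10.2, 97.75 and 17.6 in the GOLPH3 libraries and 6.05, 5.84 and 2.60 in the Vector libraries. PLAU thus made 91.1% to 99.0% of the summed PLAU and PLAT level in the former and 72.3% to 85.8% in the latter, without overlap. The size of these percentages depends on the exon lengths used, 2.95 kb for PLAU and 6.618 kb for PLAT. PLAU per PLAUR, the protease per receptor, was 1.45, 3.13 and 1.58 in the GOLPH3 libraries and 1.30, 0.913 and 1.33 in the Vector libraries, again without overlap. These ratios were chosen after the values had been seen, so no test is given. The share of gene ratios that separate the groups was not computed. Of single genes tested, 22% did not overlap in either direction. PLAU per SERPINE2 ran from 1.91 to 12.6 in the GOLPH3 libraries and from 1.32 to 5.99 in the Vector libraries, and the groups overlapped.

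**Figure D4:**
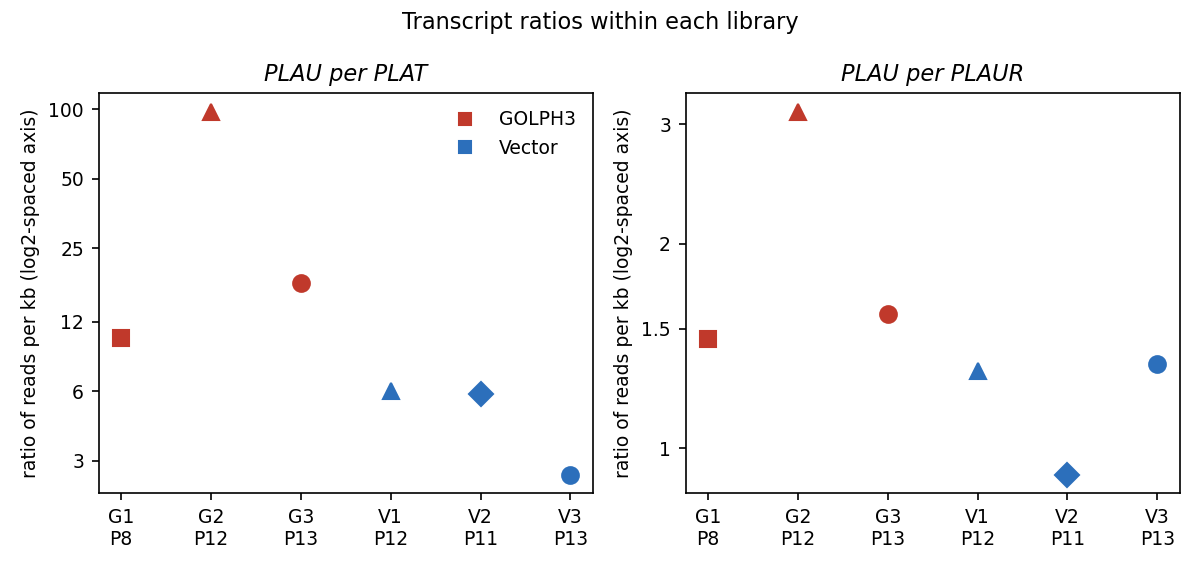
Ratio of PLAU to PLAT and of PLAU to PLAUR, each as normalized reads per kb of exon, in the 6 libraries on a log2-spaced axis. The GOLPH3 libraries lie at 10.2 to 97.75 against 2.60 to 6.05 for PLAT, and at 1.45 to 3.13 against 0.913 to 1.33 for PLAUR.

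The genes around the 9 were counted in lists. Of 20 plasminogen activation and clearance partners, 18 were tested and 0 were called by limma, DESeq2 or edgeR, with a median log2 difference of 0.11 against 0.016 over all genes. An unadjusted p under 0.05 was found for 4 of the 18, beside 17.6% of all genes. The smallest p-values belonged to HGFAC, an activator of hepatocyte growth factor (3.08, limma adjusted p = 0.0787), the lysosomal protease CTSB (0.86, 0.110) and ANXA2, a surface binding partner of plasminogen and tissue activator (0.90, 0.137). HGFAC was low, with 23, 12 and 20 reads in the GOLPH3 libraries against 0, 0 and 11 in the Vector libraries. PLG, the substrate of both activators, was listed at 0 in every library. Of 20 serpins of other clades, 10 were tested and 1 fell, where 4.12% of all genes tested were called lower. It was SERPINF1, the gene of the non-inhibitory serpin PEDF, with 53.7, 27.2 and 65.1 normalized reads against 680, 174 and 838 (-3.31, limma adjusted p = 0.00368). SERPING1, the gene of C1 inhibitor, had -1.31 (limma adjusted p = 0.296). Like PLAT, SERPINF1 was lowest among the Vector libraries in replicate 2.
Of 19 surface serine proteases, Kunitz inhibitors and thrombin receptors, 16 were tested and 5 rose, where 0.953% of all genes tested were called higher. They were PRSS22 (log2 difference 2.49, limma adjusted p = 0.00522), a tryptase, PRSS8 (2.17, 0.00334), prostasin, ST14 (1.47, 0.0167), matriptase, which can activate pro-urokinase, and the Kunitz inhibitors of matriptase SPINT2 (1.57, 0.0239) and SPINT1 (1.47, 0.0120). The median of the tested genes was 0.59. In the other direction, PRSS23, a secreted serine protease, had 160, 443 and 396 normalized reads against 1245, 462 and 836 (-1.36, limma adjusted p = 0.124). TMPRSS2 was low throughout, at most 8 reads in a library, with -1.47 (0.332). Both were without overlap and named after their values were seen. By non-overlapping groups 6 of the 16 were higher and 2 lower, where 22% of all genes tested were separated in either direction. DESeq2 called 6 of the list higher and 1, PRSS23, lower. Leaving out a library lowered the count of genes that rose to 2 without GOLPH3 replicate 3 or without Vector replicate 3, and it was 0 without both P12 libraries. The colon epithelial marker list summed to 62856 to 134427 normalized reads in the GOLPH3 libraries and 30021 to 41160 in the Vector libraries, and its part in this result was not tested. KRT8 was the largest entry of that sum in every library, with 25226 to 75110 against 13626 to 23728 normalized reads. CDX2 of the same list had a log2 difference of -0.52.

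**Figure D5:**
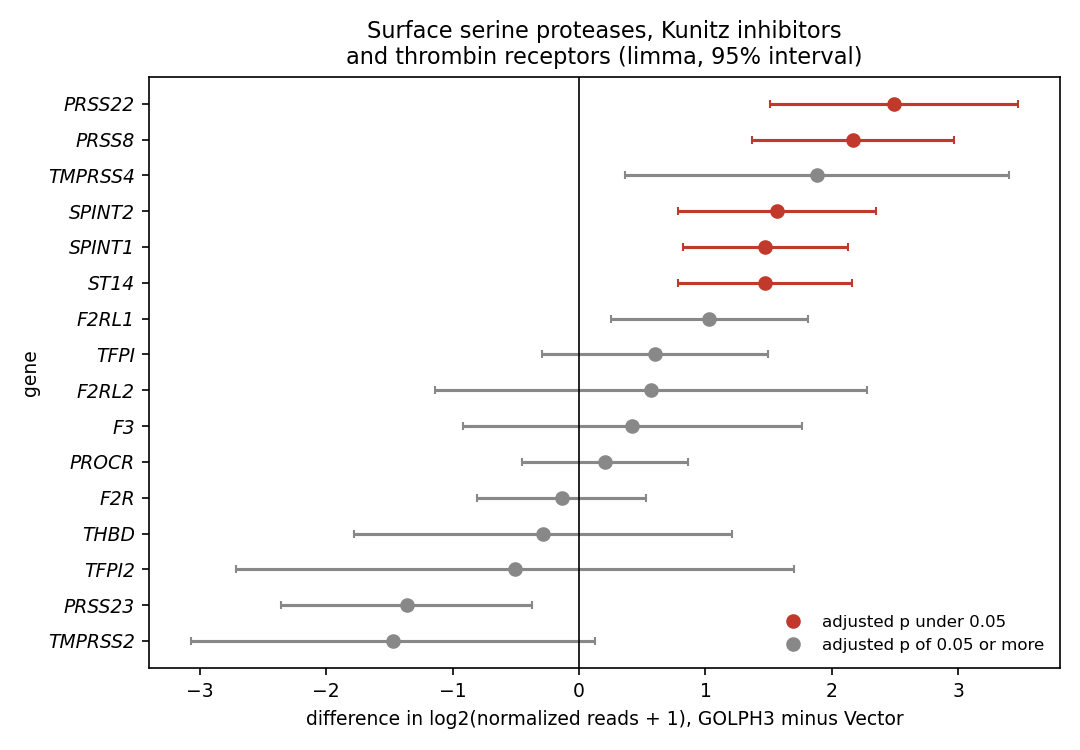
Log2 difference between GOLPH3 and Vector libraries with the 95% interval from limma for the 16 tested surface serine proteases, Kunitz inhibitors and thrombin receptors, in red where the adjusted p is under 0.05. The 5 red genes PRSS22, PRSS8, SPINT2, SPINT1 and ST14 lie between 1.47 and 2.49.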

How the data were processed

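Total RNA of 6 HCT-116 samples, 3 per group, was sequenced, and groups were taken from the sample titles. The deposited table holds a signal per gene and library. The submitters' processing notes name fastp 0.20.0, HISAT2 2.1.0, Cufflinks, featureCounts 1.6.1, DESeq2 and GRCh38, with the annotation release not given in the sources used here. In the deposited signal 100% of the nonzero values of at most 10000 reads were whole multiples (within 0.01 of a read) of a step per library. Larger values were not checked. The authors therefore divided counts by a size factor, and reads could be recovered. For 44 identifiers with a repeated row, the rows were summed.

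limma 3.58.1 (R 4.3.3, trend) was applied to log2(value + 1) in the 26536 genes that reached 1 normalized read in 3 or more libraries, with Benjamini-Hochberg adjustment over all of them, and folds are understated for low genes. Coordinates and exon lengths came from GENCODE 29, which matched 58367 identifiers (96.4%). Genes named are the 9 members, GOLPH3, up to 3 genes of each context list with the smallest p plus any other called, and the 3 genes most correlated with the member of smallest p, of which some are not reported here. Members and lists were chosen with earlier results of these data known. Alternatives were DESeq2 1.42.0 and edgeR 4.0.16 on the reads, other scalings, filters and a pseudocount of 0.1, blocks, and each library left out. On simulated data with 200 genes changed by a log2 of 2, limma recovered 179 with 9 false calls over 28081 genes. The simulation gave every gene the same spread setting and held no pattern shared by P number. These counts therefore do not give the power for genes as widely spread as PLAU or PLAT, whose within-group SD of log2 values was 1.41 and 0.94.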

Additional observations from a re-analysis of the deposited data

Results flagged for a closer look

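PLAUR was singled out because its values had opposite signs in the pairs of libraries that share a P number. Its log2 difference between GOLPH3 and Vector libraries was -0.03 within P12, close to no difference, and 0.85 within P13. There is 1 library of each group at each P number, and the difference between the pairs was not tested.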

How the results depend on the processing

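No gene of the 9 was called under limma, edgeR, quantile or TMM scaling, either other filter, a pseudocount of 0.1 or the P number as a covariate. DESeq2 called 1 and the P number as a block 6, with SERPINB2 among the 6. Leaving out each library gave 0 to 1 calls, with the call, PLAT, made without Vector replicate 2. Over all genes limma called 1346, against 405 with a value of at least 1 in every library, 2399 with the P number as a covariate, 6082 with it as a block, and 459 (without Vector replicate 1) to 1528 with a library left out, including 881 without GOLPH3 replicate 3, 895 without Vector replicate 2 and 481 without Vector replicate 3. Without both P12 libraries, an alternative chosen after seeing the data, 256 were called. PLAUR turned to -0.24 without GOLPH3 replicate 2, -0.15 without Vector replicate 2 and -0.028 within P12 (range with a library left out -0.24 to 0.80), and SERPINB8 turned to -0.010 without GOLPH3 replicate 2 (range -0.01 to 1.06). Over the same left-out libraries PLAU ranged from 0.13 to 1.71 and PLAT from -2.30 to -1.13. Deviations from the group means correlated at -0.49 and -0.28 for replicate numbers 1 and 2 and at 0.60 for number 3 (both P13) over 12662 genes, so the replicate numbers did not pair the libraries. The P12 pair correlated at 0.62 and P8 with P11 at 0.65. The replicate block called 0 of the 9 genes and 1081 of all genes. With 3 libraries per group the interval of PLAU, -0.61 to 2.50, holds both 0 and a log2 difference of 2.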

Other observations

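Of 12 intracellular protease targets of clade B serpins, 8 were tested and 1 rose, where 0.953% of all genes tested were called higher. It was CASP4, an inflammatory caspase, with a log2 difference of 1.44 (limma adjusted p = 0.0370). The call held in 1 of 6 fits with a library left out. The cathepsin CTSV had -0.95 (limma adjusted p = 0.172) and FURIN, the target of SERPINB8, had 0.94 (0.190).

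A list of 8 other genes of chromosome 19, where PLAUR lies, held genes of the uPAR family and also CADM4 and IRGC, which are not of that family. Of the 8, 5 were tested and 0 were called by limma, DESeq2 or edgeR or had an unadjusted p under 0.05. CADM4 had 0.63 (limma adjusted p = 0.387), LYPD3 0.67 (0.469) and PINLYP 0.60 (0.726), and the list's median was 0.60. Of 7 endothelial markers 0 were called by limma, DESeq2 or edgeR and 0 had an unadjusted p under 0.05, with sums of 28.9 to 50.5 normalized reads in the GOLPH3 libraries and 31.8 to 46.3 in the Vector libraries.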
